A study of Homo sapiens with 12 samples.

Results

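The regions described here are the STAT5B peaks of 6 T-ALL cell lines whose summit, the base of highest pileup, lay inside a protein-coding gene, more than 2 kb from every protein-coding transcription start site, and without the STAT palindrome within 50 bp. The palindrome searched was TTCNNNGAA, the 9-base core of a GAS element (gamma interferon activation site), in which TTC and GAA are separated by 3 free bases. Only chromosomes 1 and 2 were taken, and genes and start sites came from GENCODE version 44 on GRCh38. The rule chose 8210 of the 24844 peaks in the 6 lists. It used position and sequence only, so neither the fold enrichment nor the q of a peak entered it. The class is named for what it lacks, and the data were therefore examined for what else these summits share.

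The 6 libraries came from as many T-ALL lines. Phosphorylated STAT5 (pY-STAT5) is low in JURKAT and LOUCY and high in the rest, namely SUP-T13, DND-41, KOPT-K1, and HSB-2. All are established human leukemia cell lines labelled precursor T-cell, of lymphoid tissue, untreated as far as the labels say, and labelled WT for genotype, although the study describes an activating *STAT5B* mutation on both alleles of KOPT-K1. One STAT5B library, precipitated with the antibody AF1584, and 1 input library were made per line, so a line is 1 sample and its values have no replicate. The authors called peaks with the input of that line as control. Each line is also a different leukemia with its own driver lesions, so pY-STAT5 cannot be told apart from the other ways in which the lines differ.

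The lists cover the genome unevenly. On chromosomes 1 and 2 lay 4324 of the 4368 peaks of SUP-T13, 5878 of 6015 in DND-41, 877 of 2755 in KOPT-K1, 2991 of 3052 in HSB-2, 4836 of 6316 in JURKAT, and 1897 of 2338 in LOUCY. Whether peaks were left out before deposit was not tested, so a gene without a listed peak is not shown to lack binding. Of the palindrome-free gene-body summits of KOPT-K1, 353 of 361 lay on chromosome 2, whereas between 72.9% and 90.9% of those of the other lines lay on chromosome 1. The first chromosome 1 summit of HSB-2 lay at 63.6 Mb, so genes before that position had no listed peak in that line. The 10 fullest 1-Mb bins held 50.1% of the summits in KOPT-K1 and between 20.6% and 32.4% in the other lines. Read counts were not among the columns, so depth is unknown, and binomial intervals below cover counting error only.

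STAT5 is a transcription factor that is phosphorylated by JAK kinases below cytokine receptors such as the IL-7 receptor, dimerizes, and binds GAS palindromes near genes for survival, proliferation, and lymphocyte differentiation. Enhancers of lymphoid genes often lie in introns, where STAT5 sites occur beside those of other lymphoid factors. RUNX proteins, which bind the core TGTGGT, are among the central factors of T cell development. A ChIP-Seq peak without the palindrome can arise in several ways, which a peak list does not separate.

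The sequences of the strongest summits are shown first because they show that the class is mixed. They are windows of GRCh38 on the plus strand, 50 bp to either side of the summit, of the summits with the highest or second-highest fold enrichment of their list. Capitals mark every 9-base stretch in which 1 of the 6 fixed bases of the palindrome is changed.
*ARHGAP15* in KOPT-K1, chr2:143258539-143258639: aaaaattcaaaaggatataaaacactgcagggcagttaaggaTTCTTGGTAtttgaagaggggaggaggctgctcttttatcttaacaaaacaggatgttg
*TTC34* in KOPT-K1, chr1:2652195-2652295: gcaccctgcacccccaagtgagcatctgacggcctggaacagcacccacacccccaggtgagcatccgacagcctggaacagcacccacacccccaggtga
*CRIM1* in DND-41, chr2:36387661-36387761: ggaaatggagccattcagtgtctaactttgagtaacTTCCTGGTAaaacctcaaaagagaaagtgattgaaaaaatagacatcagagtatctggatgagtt
*SH3RF3* in LOUCY, chr2:109199456-109199556: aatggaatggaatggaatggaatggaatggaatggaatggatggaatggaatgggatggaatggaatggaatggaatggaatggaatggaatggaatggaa
*CERKL* in LOUCY, chr2:181615041-181615141: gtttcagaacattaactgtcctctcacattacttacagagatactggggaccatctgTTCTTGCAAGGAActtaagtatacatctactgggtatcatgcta
*SPAG16* in JURKAT, chr2:214139761-214139861: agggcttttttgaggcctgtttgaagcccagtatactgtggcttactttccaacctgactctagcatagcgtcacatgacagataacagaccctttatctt
The *SH3RF3* window, in intron 1 of a gene for a ubiquitin ligase, is an array of the unit GGAAT, which occurs 17 times in it, and 94.8% of its bases matched the base 5 positions further on. This base of chromosome 2, at 109199506, was the top summit of both SUP-T13 (fold enrichment 4.67, −log10 q 28.0) and LOUCY (5.49 and 90.6), and its LOUCY interval was 84.1 Mb long. It was the only base at which the palindrome-free gene-body summits of any 2 lists coincided. The *TTC34* window is also repeated, with 85.2% of its bases matching at a shift of 40 bases. Over the class such windows were rare. Only 14 of the 8210 windows, or 0.171%, matched themselves at 80% or more of bases under any shift of 2 to 40 bases, and no line stood above its flanks beyond the exact 95% intervals. The windows in *ARHGAP15* (a Rac GTPase-activating protein), *CRIM1* (a membrane protein that binds BMPs), *CERKL* (a ceramide kinase-like protein), and *SPAG16* (a protein of the sperm axoneme) held no such repeat.

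Windows of 151 bp are shown for 3 of the other top summits because a palindrome lay just beyond the 50 bp that the rule examined. Capitals mark TTCNNNGAA and, where present, the RUNX core TGTGGT or its complement.
*NCKAP5* in DND-41, chr2:133361047-133361197: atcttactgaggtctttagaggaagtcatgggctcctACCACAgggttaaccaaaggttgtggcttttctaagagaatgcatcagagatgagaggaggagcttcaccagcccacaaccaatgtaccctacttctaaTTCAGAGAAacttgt
*PDE11A* in HSB-2, chr2:177784314-177784464: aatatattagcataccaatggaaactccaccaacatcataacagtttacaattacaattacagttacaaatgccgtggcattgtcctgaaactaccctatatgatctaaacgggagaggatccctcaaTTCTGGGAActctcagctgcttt
*CDKL4* in SUP-T13, chr2:39216938-39217088: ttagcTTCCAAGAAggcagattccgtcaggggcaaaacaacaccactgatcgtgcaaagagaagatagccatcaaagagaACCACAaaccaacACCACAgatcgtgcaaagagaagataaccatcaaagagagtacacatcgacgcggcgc
The nearest palindrome lay 65 bp from the summit in *NCKAP5* (fold enrichment 6.12 in DND-41), 57 bp in *PDE11A*, a cyclic nucleotide phosphodiesterase (3.82 in HSB-2), and 66 bp in *CDKL4*, a cyclin-dependent kinase-like gene (4.07 in SUP-T13). The intervals around these 3 summits were 1.71, 1.96, and 10.1 Mb long, so each summit is 1 position in a very broad region. These windows show that some summits counted as palindrome-free were close to a palindrome.

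The windows of the next set, chosen after their values were seen, are of the highest summit in 3 lines among those with a RUNX core within 50 bp, leaving out windows of the set above and windows in a UTR. The corresponding summits of KOPT-K1 and HSB-2 lay in *ANKRD36C* and *SRGAP2B*, genes with near-identical copies, and are not shown. Capitals mark the core.
*SH3RF3* in DND-41, chr2:109214204-109214304: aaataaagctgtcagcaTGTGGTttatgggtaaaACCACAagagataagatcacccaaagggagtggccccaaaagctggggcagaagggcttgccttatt
*TBX19* in LOUCY, chr1:168285517-168285617: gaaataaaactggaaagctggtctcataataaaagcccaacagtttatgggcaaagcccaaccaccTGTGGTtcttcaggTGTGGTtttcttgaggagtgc
*CREB1* in JURKAT, chr2:207553429-207553529: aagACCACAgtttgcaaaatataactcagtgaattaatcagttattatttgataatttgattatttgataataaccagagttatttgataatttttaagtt
The *SH3RF3* summit of DND-41, with a fold enrichment of 5.69, lay in the same intron as the GGAAT array but outside it and held 2 cores. *TBX19* (a T-box factor) also held 2, and *CREB1* (a cyclic AMP-responsive factor) held 1.

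The last set is of 3 of the 4 sites that held such a summit in 4 lines, the most for any site. Capitals again mark palindromes with 1 changed base.
*IGFBP5* in DND-41, chr2:216692259-216692359: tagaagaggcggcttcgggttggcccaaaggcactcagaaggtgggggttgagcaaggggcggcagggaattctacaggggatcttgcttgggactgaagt
*TUT4* in SUP-T13, chr1:52452614-52452714: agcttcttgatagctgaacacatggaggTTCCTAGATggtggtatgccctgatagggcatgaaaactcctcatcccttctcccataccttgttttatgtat
*IKZF2* in SUP-T13, chr2:213043319-213043419: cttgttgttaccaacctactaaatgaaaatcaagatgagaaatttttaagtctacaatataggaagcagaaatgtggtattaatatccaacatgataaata
The *IGFBP5* and *IKZF2* windows held no palindrome with 1 changed base, and the *TUT4* window held 1. The *IKZF2* window holds a RUNX core and 27.7% G and C, and the *IGFBP5* window 58.4%. The sites are described further with the sharing of summits below.

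SUP-T13 had 1743 palindrome-free gene-body summits, DND-41 2209, KOPT-K1 361, HSB-2 962, JURKAT 2066, and LOUCY 869. They made up 40.3% (38.8 to 41.8), 37.6% (36.3 to 38.8), 41.2% (exact 95% interval 37.9 to 44.5), 32.2% (30.5 to 33.9), 42.7% (41.3 to 44.1), and 45.8% (43.6 to 48.1) of the chromosome 1 and 2 summits of these lines. The 2 low pY-STAT5 lines had the 2 highest shares, and the groups did not overlap. The mean was 37.8% ± 4.06 (SD, n = 4) in the high lines and 44.3% ± 2.18 (SD, n = 2) in the low lines (exact two-sided permutation test, p = 0.13, the smallest that 15 splits allow, adjusted p = 0.7 over 7 group comparisons). The count itself was 1319 ± 820 against 1468 ± 846 (exact permutation test, p = 0.933). Gene-body summits that did hold the palindrome numbered 66, 229, 27, 75, 61, and 18, which is 3.65, 9.39, 6.96, 7.23, 2.87, and 2.03% of all gene-body summits of the respective line. The remaining group comparisons, of host gene length, intron 1 share, G and C content, sharing, and host gene number, had unadjusted exact p-values between 0.267 and 0.8.

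**Figure D1:**
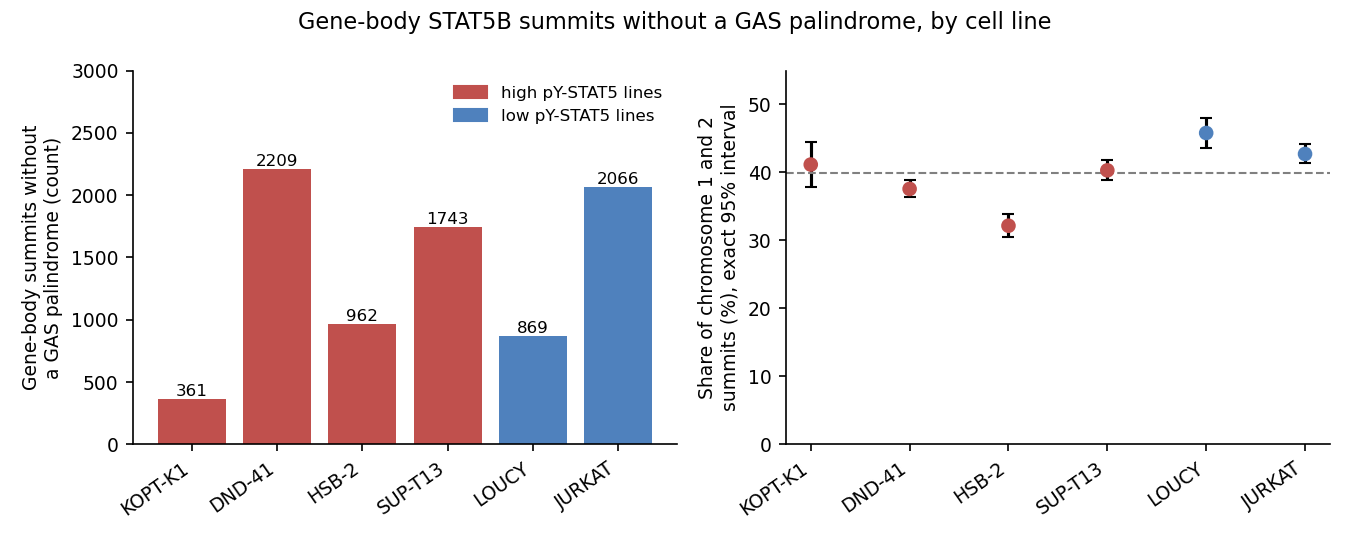
The left panel plots the number of palindrome-free gene-body summits on chromosomes 1 and 2 per cell line, and the right panel their share of all chromosome 1 and 2 summits of the line in percent with exact 95% binomial intervals. The dashed line marks 39.9%, the share of bases in gene bodies more than 2 kb from a start site. It counts only bases with no palindrome within 50 bp, whereas the points are shares of all summits, so the 2 have unlike denominators. Of the palindrome-free summits alone, DND-41 had 41.7% in gene bodies, above the line. At this distance of 2 kb, LOUCY at 45.8% and JURKAT at 42.7% lie above the 4 high pY-STAT5 lines, and HSB-2 at 32.2% is lowest.

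Most of these summits were weak. The median fold enrichment over input was 2.02 in SUP-T13, 2.19 in DND-41, 2.08 in KOPT-K1, 1.88 in HSB-2, 1.92 in JURKAT, and 1.72 in LOUCY, and the highest values were 4.67, 7.18, 4.80, 3.82, 3.03, and 5.49. Tests compare these values within a list only, because depth is unknown and both depth and background may differ between lists. Gene-body summits with the palindrome had medians of 2.04, 2.42, 2.52, 1.95, 1.95, and 1.62, so the palindrome-free summits were lower in every line but LOUCY. The difference was −0.114 ± 0.189 (SD, n = 6 lines) and was not separated from 0 by an exact sign-flip permutation test (p = 0.219, adjusted p = 0.387 over 11 within-line comparisons). It was −0.0495 without KOPT-K1 and −0.0182 with intervals no longer than 5 kb. KOPT-K1 and DND-41 had the largest gaps, −0.437 and −0.227.

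Promoter summits without the palindrome were higher than the gene-body ones in 6 of 6 lines, by a small margin. The gene-body median was lower by 0.0523 ± 0.0301 (SD, n = 6; exact sign-flip permutation test, p = 0.031, the smallest that 64 sign patterns allow, adjusted p = 0.172). With intervals no longer than 5 kb the difference was 0.00402 in the other direction. Against intergenic summits without the palindrome, the difference was −0.0106 ± 0.0405 (exact sign-flip permutation test, p = 0.688). At the edge of the rule, gene summits between 1 and 2 kb from a start site were left out. Their median fold enrichments ran from 1.72 in LOUCY to 2.24 in DND-41. Those between 2 and 3 kb, which were just included, ran from 1.70 to 2.22 in the same lines.

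A −log10 q of at least 5 was reached by 328 summits, 64 in SUP-T13, 148 in DND-41, 10 in KOPT-K1, 37 in HSB-2, 24 in JURKAT, and 45 in LOUCY. These strong summits belonged to long intervals, with medians between 39.2 kb in DND-41 and 595 kb in KOPT-K1, compared with 3.59 to 9.93 kb for the weaker ones. In 5 of the 6 lines they were also more often on chromosome 2, for example 67.6% against 17.4% in DND-41, and KOPT-K1 had 90% against 98.0%. Among all palindrome-free summits that reached this q, gene bodies held 37.0% in SUP-T13, 34.2% in DND-41, and 26.3% in KOPT-K1. The shares were 28.7% in HSB-2, 24.2% in JURKAT, and 39.5% in LOUCY. Every line lay below 39.9%, the gene-body share of the bases with no palindrome within 50 bp. The log2 ratio to the share of bases was −0.357 ± 0.283 (SD, n = 6), and −0.360 ± 0.162 against the bases of the 1-Mb bins that held the strong summits (exact sign-flip permutation test, p = 0.031 in both, unadjusted, chosen after the data were seen for the bins). Promoters took between 22.0% and 28.7% of the strong palindrome-free summits in the 5 lines other than KOPT-K1, and 7.89% there. Promoters make up 7.98% of the bases with no palindrome within 50 bp.

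Beyond the 50 bp that the rule excludes, palindromes were close to the summit in DND-41. In that line, 135 of 2209 summits, or 6.11% (exact 95% interval 5.15 to 7.19), had the nearest palindrome between 51 and 100 bp, compared with 3.80% (3.25 to 4.42) of flank windows centred 1000 bp to either side. The next 50 bp had 4.03% against 3.12% with overlapping intervals. In the other 5 lines pooled, 3.6% (3.14 to 4.10) of 6001 summits had a palindrome between 51 and 100 bp, and 3.61% of the flanks. Over the wider distance of 51 to 250 bp the shares were 17.0% against 13.2% in DND-41, and in the other lines they differed from their flanks by between −1.75 and 0.42 percentage points. The mean over 6 lines was 0.286 ± 1.89 percentage points (SD, n = 6; exact sign-flip permutation test, p = 0.812), and −0.419 without DND-41.

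**Figure D2:**
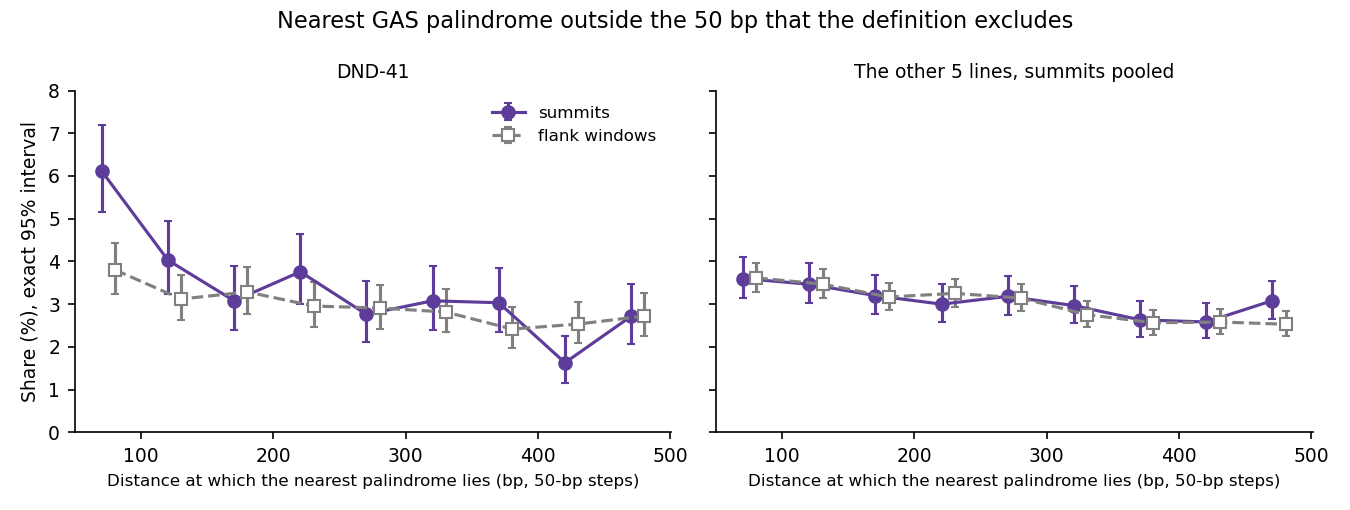
Each panel plots the share of palindrome-free gene-body summits (filled circles) and of flank windows 1000 bp away (open squares) whose nearest GAS palindrome lies in successive 50-bp steps from 51 to 500 bp, in percent with exact 95% binomial intervals. In DND-41 the first step is 6.11% at the summits and 3.80% in the flanks, and in the other 5 lines the 2 curves are at 3.6% and 3.61%.

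The share with a palindrome just outside the window was higher at strong than at weaker summits in DND-41, HSB-2, and SUP-T13. Between 51 and 100 bp, a palindrome lay near 27 of 148 strong summits in DND-41 (18.2%, exact interval 12.4 to 25.4), 8 of 37 in HSB-2 (21.6%, 9.83 to 38.2), and 8 of 64 in SUP-T13 (12.5%, 5.55 to 23.2). Their flanks had 1.06, 7.04, and 3.31%, and the interval of DND-41 alone lay above that of its flanks. None was found near the 10 strong summits of KOPT-K1, the 45 of LOUCY, or the 24 of JURKAT, counts of 0 with exact 95% upper bounds of 30.8%, 7.87%, and 14.2%, and of 30%, 6.67%, and 12.5% by the limit of 3 counts. Among the weaker summits the shares were 3.39, 5.24, 4.56, 2.92, 3.77, and 2.79%, which differed from their flanks by 0.0798 ± 0.770 percentage points (SD, n = 6; exact sign-flip permutation test, p = 0.875). Strong minus weak summits gave 4.95 ± 9.98 percentage points, higher in 3 of 6 lines (exact sign-flip permutation test, p = 0.281). The 50-bp steps, and the comparison of strong with weaker summits, were chosen after the data were seen.

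Of 10 motifs searched within 50 bp on both strands, the RUNX core TGTGGT was the only one above the flanks in 6 of 6 lines. It was found at 8.95% of summits in SUP-T13, 9.19% in DND-41, 9.42% in KOPT-K1, 10.6% in HSB-2, 7.55% in JURKAT, and 8.06% in LOUCY. The flanks had 8.17, 6.80, 8.06, 6.07, 7.28, and 6.16%. The difference was 1.87 ± 1.51 percentage points (SD, n = 6; exact sign-flip permutation test, p = 0.031, adjusted p = 0.312 over the 10 motifs), so it did not pass the adjustment, which the design cannot pass for 1 motif among 10. In HSB-2 and DND-41 the exact intervals of summit and flank did not overlap, and in JURKAT the difference was 0.274. Of 181070 windows of the same length spaced 1 kb apart along the eligible gene bodies, 7.01% held the core.

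The RUNX core was most frequent at the strong summits. It was found at 13 of 64 in SUP-T13 (20.3%, 11.3 to 32.2), 23 of 148 in DND-41 (15.5%, 10.1 to 22.4), 2 of 10 in KOPT-K1 (20%, exact interval 2.52 to 55.6), 9 of 37 in HSB-2 (24.3%, 11.8 to 41.2), 2 of 24 in JURKAT (8.33%, 1.03 to 27.0), and 3 of 45 in LOUCY (6.67%, 1.4 to 18.3). The 4 high pY-STAT5 lines lay between 15.5% and 24.3% and the 2 low lines at 6.67% and 8.33%, without overlap (exact permutation test, unadjusted p = 0.13, the smallest possible). This group comparison was added after the data were seen and rests on few summits with the core. Summit minus flank was 11.8 ± 8.12 percentage points at strong summits and 1.49 ± 1.33 at the weaker ones (SD, n = 6; exact sign-flip permutation test, unadjusted p = 0.031 for each). Strong minus weak summits gave 7.18 ± 6.34 percentage points and was positive in 5 of 6 lines, with LOUCY the exception (exact sign-flip permutation test, p = 0.0938). Mean G and C content was also higher, 41.5% at all summits and 40.3% in the flanks. The difference was 1.19 ± 1.46 points (exact sign-flip permutation test, p = 0.0625, adjusted p = 0.172), and 0.661 without KOPT-K1. It ranged from −0.12 in HSB-2, which had the largest RUNX difference (4.53 points, all summits), to 3.82 in KOPT-K1. The part of G and C content in the motif shares was not tested.

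**Figure D3:**
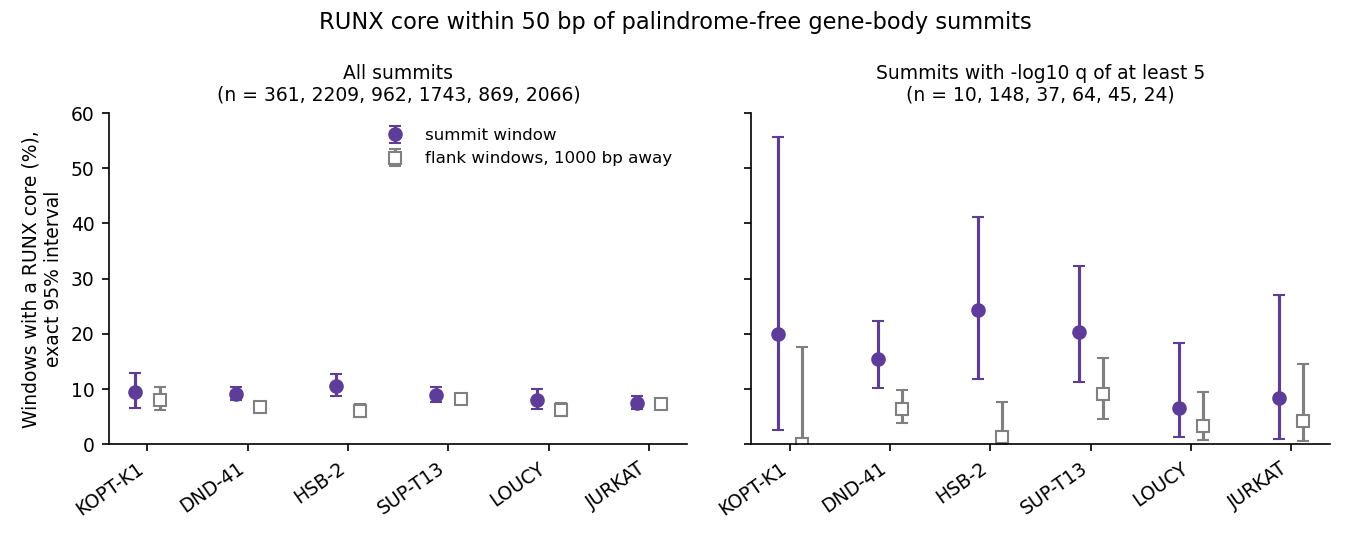
Each panel plots the share of windows with the RUNX core TGTGGT within 50 bp of the summit (filled circles) and in flank windows 1000 bp away (open squares), in percent with exact 95% binomial intervals, for all palindrome-free gene-body summits (left) and those with a −log10 q of at least 5 (right), with the number of summits per line above. At strong summits the 4 high pY-STAT5 lines lie between 15.5% and 24.3%, and LOUCY and JURKAT at 6.67% and 8.33%, with wide intervals.

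The core was not particular to gene bodies. Palindrome-free promoter summits held it 1.3 ± 1.73 percentage points above their flanks, in 5 of 6 lines, and intergenic ones 1.00 ± 1.19, also in 5 of 6. The difference between gene-body and intergenic summits was 0.870 ± 1.77 percentage points (SD, n = 6; exact sign-flip permutation test, p = 0.312), and between gene-body and promoter summits 0.570 ± 2.24 (exact sign-flip permutation test, p = 0.562). These differences were positive in 4 of 6 and 3 of 6 lines. Both were highest in HSB-2, at 3.71 and 3.57, and leaving out that line was not tested.

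No other motif was separated from its flanks by the test. The palindrome with 1 changed base was found at 39.0% of summits and 40.3% of flanks and in 40.3% of all gene-body windows, a difference of −1.3 ± 1.75 (exact sign-flip permutation test, p = 0.156). The shorter spacing TTCNNGAA, which was 3.34% against 3.15%, and the longer spacing with 4 free bases, which STAT6 prefers, which was 2.47% against 2.73%, gave p-values of 0.344 and 0.75 by the same exact test. The GATA core AGATAA was at 7.01% against 7.71% and the TCF/LEF core CTTTGA at 6.49% against 6.84%, both lower in 5 of 6 lines (exact sign-flip permutation test, p = 0.0938 and 0.125). The ETS core CAGGAAG, the E-box CAGCTG, and the AP-1 site TGANTCA differed by 0.0366, −0.206, and −0.192 percentage points. The CTCF core was rare, at 0.214% against 0.066%, and higher than the flanks in 4 of 6 lines (exact sign-flip permutation test, p = 0.219). All gene-body windows held AGATAA at 7.64%, CTTTGA at 6.80%, CAGGAAG at 2.61%, CAGCTG at 3.46%, TGANTCA at 3.02%, the shorter and longer STAT spacings at 3.18% and 2.77%, and the CTCF core at 0.037%. None of the adjusted p-values was below 0.312. These motifs overlap in part, since a palindrome with 1 changed base can share bases with any of the others.

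The gene-body share of palindrome-free summits followed the share of sequence. Among summits without the palindrome, 41.9% in SUP-T13, 41.7% in DND-41, and 43.7% in KOPT-K1 lay in gene bodies. The shares were 34.7% in HSB-2, 44.1% in JURKAT, and 47.2% in LOUCY. Of the sequenced bases of both chromosomes with no palindrome within 50 bp, 39.9% lay in such gene bodies. The log2 ratio was 0.0746 ± 0.151 (SD, n = 6; exact sign-flip permutation test, p = 0.281), positive in every line but HSB-2. It was 0.130 without HSB-2 and 0.0408 without LOUCY (exact sign-flip permutation test, p = 0.0625 and 0.562). Against the bases of the 1-Mb bins that held the summits of each line, the log2 ratio was −0.00192 ± 0.0459 (exact sign-flip permutation test, p = 0.938).

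Within genes, the summits as a whole were spread much like the bases. Intron 1 of the canonical transcript held 1532 of the 8210 summits (18.7%), later introns 5380 (65.5%), exons 426 (5.19%), and 872 (10.6%) lay in a part of the gene outside the canonical transcript. The eligible bases were divided 19.7, 65.3, 4.63, and 10.3%. The intron 1 share ranged from 16.6% in KOPT-K1 to 19.9% in SUP-T13, with a log2 ratio of −0.103 ± 0.106 (SD, n = 6; exact sign-flip permutation test, p = 0.125). With the longest protein-coding transcript of each gene, the log2 ratio was −0.0481 (exact sign-flip permutation test, p = 0.156). Among strong summits the intron 1 share ranged from 10% in KOPT-K1 to 26.7% in LOUCY, with a log2 ratio of −0.309 (exact sign-flip permutation test, p = 0.25). Exons were above their share of bases in 6 of 6 lines, with 5.05% in SUP-T13, 4.75% in DND-41, 5.82% in KOPT-K1, 5.30% in HSB-2, 5.23% in JURKAT, and 6.10% in LOUCY (log2 ratio 0.211 ± 0.132; exact sign-flip permutation test, p = 0.031, adjusted p = 0.172). Against the bases of the 1-Mb bins holding the summits, the log2 ratio of the exon share was 0.00418 (exact sign-flip permutation test, p = 1). Along the host gene the median relative position from the start was 0.517, and the first 20% of the gene held 16.8% of summits and the last 20% held 20.3%. The first part includes the 2 kb behind a start site that the rule leaves out.

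The host genes were long. Taking the host of each summit, the median length was 138 kb in SUP-T13, 151 kb in DND-41, 207 kb in KOPT-K1, 172.5 kb in HSB-2, 148 kb in JURKAT, and 134 kb in LOUCY, compared with 36.0 kb for the 3019 protein-coding genes with any eligible sequence. A base drawn from the eligible gene bodies has a host of 191 kb in the median, and KOPT-K1 alone was above that. Per Mb of eligible gene body, summed over the lines, there were 59.7 summits in genes under 50 kb, 53.8 in genes of 50 to 100 kb, 46.8 in genes of 100 to 200 kb, 40 in genes of 200 to 500 kb, and 35.3 in genes over 500 kb. The summed density was thus lower in longer genes. KOPT-K1 did not follow this order, with 1.36, 1.52, 2.53, 3.04, and 0.755 summits per Mb, and HSB-2 stayed between 4.02 and 5.98. JURKAT rose from 8.28 in genes of 200 to 500 kb to 11.3 in genes over 500 kb. DND-41 rose from 15.1 to 16.3 between the 2 shortest classes. LOUCY (5.34 to 5.71) and SUP-T13 (10.7 to 10.9) rose slightly from 50 to 100 kb to 100 to 200 kb. When the expected share of each length class was taken from the 1-Mb bins that held the summits of the line, the mean log2 ratios were 0.0628 ± 0.100, −0.0153 ± 0.116, 0.0203 ± 0.0997, −0.0476 ± 0.126, and −0.0766 ± 0.0893 (SD, n = 6) from the shortest to the longest class. Only 1 of 6 lines was above 0 in the longest class and 5 of 6 in the shortest. The 539 summits that lay in more than 1 gene are counted here for the gene with the shortest canonical transcript over them, or otherwise for the shortest gene.

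A palindrome-free summit was found in 637 of the 3019 genes in DND-41 (21.1%), 543 in JURKAT (18%), 520 in SUP-T13 (17.2%), 415 in LOUCY (13.7%), 346 in HSB-2 (11.5%), and 144 in KOPT-K1 (4.77%). Together they make 1162 genes (38.5%), of which 433 (14.3%) were hosts in 3 or more lines, 416 in 1 line only, and 5 in all 6. The summits were concentrated. The 252 genes with 10 or more held 66.8% of summits, and the 10 genes with the most held 13.5%.

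The genes with the most summits had different leading lines. *AGBL4*, a carboxypeptidase that trims tubulin tails (chromosome 1, 48532854 to 50023954, minus strand), had 231, with 20 in DND-41, 87 in LOUCY, 103 in JURKAT, 21 in SUP-T13, and 0 in the other 2 lines. All 231 were in introns of its canonical transcript, and they made up 10.0% of all palindrome-free gene-body summits of LOUCY and 4.99% of those of JURKAT. *DPYD*, which starts pyrimidine breakdown, had 136 in all 6 lines, led by DND-41 with 68 and JURKAT with 37. *DAB1*, an adaptor of reelin signaling, had 134, of which 87 were in JURKAT and 30 in DND-41, and *NEGR1*, a neuronal adhesion molecule, had 131, of which 54 were in DND-41. *DNM3*, a dynamin, had 89, of which 70 were in SUP-T13, and *KCNS3*, a potassium channel subunit, had 67, of which 64 were in SUP-T13 and 3 in KOPT-K1. *FAF1* (a FAS-associated factor, 96), *COL24A1* (a collagen, 81), *ALK* (a receptor tyrosine kinase, 79), and *LRRC7* (a postsynaptic scaffold, 67) completed the 10. *AGBL4*, *DAB1*, and *FAF1* lie before the first listed chromosome 1 summit of HSB-2, which had 0 in each. Fold enrichments in these 10 genes, over all lists, lay between 1.52 and 3.01. The highest was an *ALK* summit of DND-41, with a −log10 q of 6.10, and another *ALK* summit, of JURKAT, had 2.63 and 5.93.

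The 5 genes with a summit in every line were *DPYD*, *CLIP4* (a microtubule linker protein) with 1, 7, 4, 1, 6, and 2 summits in SUP-T13, DND-41, KOPT-K1, HSB-2, JURKAT, and LOUCY, *FNBP1L* (an F-BAR protein of membrane curvature) with 2, 6, 1, 1, 6, and 4, *ABCD3* (a peroxisomal transporter) with 1, 5, 1, 3, 4, and 2, and ENSG00000271949, an unnamed gene, with 2, 5, 1, 3, 8, and 6. *CLIP4* is 102 kb long and had 318 summits per Mb, above the 45.3 of all genes, and *ABCD3* and *FNBP1L* had 191 and 213. These values describe genes picked for being hosts everywhere.

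In 3 of the 3019 genes every high pY-STAT5 line, and no low one, had a summit, and in 12 of them both low lines and no high one did, all of them named or counted after their values were seen. The first pattern needs a summit in 4 lines and the second in 2, so the counts are not compared. *ANKRD44*, an ankyrin repeat gene on chromosome 2, had 11 in DND-41, 3 each in KOPT-K1 and HSB-2, and 1 in SUP-T13. *WDR12* (a ribosome assembly factor) and *CARF* (a calcium-responsive transcription factor) overlap on opposite strands and share 5 summits, of which 2 were in SUP-T13 and 1 in each of the other 3. Of the 12 genes of the low lines, *ZZZ3*, a subunit of a histone acetyltransferase complex, had 5 summits in LOUCY and 8 in JURKAT. *GTF2B*, a general transcription factor, had 1 and 3, and *MEF2D*, a MADS-box factor, 1 in each. All 12 lie on chromosome 1, where KOPT-K1 had 8 such summits in all.

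Genes of T cell and immune signaling were hosts at a slightly higher rate than all genes but, summed over the lines, not at a higher density. Of 58 such genes with eligible sequence, 28 held a summit in some line (48.3%, against 38.5% of all genes), and 13 in 3 or more lines (22.4% against 14.3%). Their median length was 59.2 kb compared with 36.0 kb, and they held 41.0 summits per Mb compared with 45.3. *VAV3*, an exchange factor below the T cell receptor, had the most, with 21 in SUP-T13, 12 each in DND-41 and JURKAT, 6 in LOUCY, and 5 in HSB-2, and 55 of its 56 were intronic. *CD58*, the ligand of CD2, had 15, of which 8 were in intron 1, and *PTPN22*, a phosphatase that restrains T cell receptor signaling, had 9. The costimulatory receptor gene *CD28* had 1 in DND-41, 2 in SUP-T13, and 1 in JURKAT. Among cytokine pathway genes, *JAK1*, the kinase that pairs with JAK3 upstream of STAT5, had 1 in DND-41, 2 in LOUCY, 5 in JURKAT, and 4 in SUP-T13. *IL23R* had 15 and *IL12RB2* 13, neighbouring receptor genes that each had summits in 5 lines. *STAT4* had 5 in 4 lines, and *IL6R* 4 in 3 lines. Of the genes clustered on chromosome 2 that act downstream of death receptors, *CASP10* had 9, *CASP8* 5, and *CFLAR*, which inhibits caspase 8, 3. *BCL10*, an adaptor of NF-κB signaling, had 3.

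Transcription and chromatin factors of lymphoid development and T-ALL gave a similar picture. Of 38 such genes, 17 were hosts in some line (44.7%) and 11 in 3 or more, at 36.6 summits per Mb. *IKZF2*, which encodes the Ikaros family factor Helios, had 36, with 13 in SUP-T13, 8 in DND-41, 6 in HSB-2, 5 in JURKAT, and 4 in LOUCY. *NCOA1*, a nuclear receptor coactivator, had 23, and *NOTCH2*, a receptor that acts as a transcription factor after cleavage, 22 in 4 lines. *TRIM33* had 18 and *ASXL2* 11, both chromatin regulators, and the DNA methyltransferase gene *DNMT3A* had 10. *NFE2L2* (7), *FOSL2* (6), *LMO4* (3), and *CREB1* (3) encode transcription factors or cofactors. The 3 *CREB1* summits, in DND-41, SUP-T13, and JURKAT, had fold enrichments between 2.61 and 2.65.

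A list of long genes, most of them neural, with a median of 760 kb, was included for comparison. It also holds *AGBL4* and *DPYD*, which are not genes of adhesion or synapse and supply 231 and 136 of its 868 summits. Of 30, 14 were hosts (46.7%) and 8 in 3 or more lines, at 39.1 summits per Mb, led by DND-41 with 12.4 and JURKAT with 14.2 per Mb, whereas SUP-T13 had 2.48 and KOPT-K1 0.361. Besides *AGBL4*, *DPYD*, *DAB1*, *NEGR1*, *ALK*, and *LRRC7*, these were *PTPRF*, a receptor phosphatase, with 11, and *KCNT2*, a potassium channel, with 10. In all 3 lists the share of hosts was above that of all genes and the density summed over the lines below it. Within single lines this order did not always hold. The signaling genes were denser than all genes in SUP-T13 (11.3 against 9.63 summits per Mb) and LOUCY (5.88 against 4.80), and so were the factors (9.97 and 4.89). The long genes were denser in DND-41 (12.4 against 12.2), JURKAT (14.2 against 11.4), and LOUCY (5.77). Without *AGBL4*, which was left out after its values were seen, the long genes had 10.2 summits per Mb in JURKAT and 1.97 in LOUCY, both below all genes, and 12.3 in DND-41. No set test was made.

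The same site was rarely found in 2 lines. Summits of different lists within 500 bp were joined, which gave 7800 sites, of which 385 (4.94%) held summits of more than 1 line. Of these, 364 were shared by 2 lines, 17 by 3, 4 by 4, and 0 by 5 or 6. Without DND-41 there were 180 shared sites, and without JURKAT 208. The share of palindrome-free gene-body summits within 500 bp of such a summit in another list was 8.26% in SUP-T13, 10.4% in DND-41, 4.16% in KOPT-K1, 12.6% in HSB-2, 9.87% in JURKAT, and 14.6% in LOUCY. Points 20 kb away gave 7.14, 7.29, 2.22, 9.15, 8.62, and 9.84%. The share at the summits was higher in 6 of 6 lines, by 1.12 to 4.78 percentage points, and no test was run. Taken pair by pair, it was higher in 25 of 30 comparisons of 1 list with another. For SUP-T13 and JURKAT it was lower in both directions, at 1.84% against 2.41% and 1.65% against 2.27%.

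The 4 sites of 4 lines had modest fold enrichments, and 2 of the *IGFBP5* summits were strong, with a −log10 q of 5.75 in HSB-2 and 5.64 in LOUCY. In intron 1 of *IGFBP5*, a binding protein of insulin-like growth factors, the summits of SUP-T13, DND-41, HSB-2, and LOUCY spanned 317 bp, 2307 to 2623 bp from the start site, with fold enrichments of 1.99, 2.28, 2.23, and 1.89. The nearest palindrome was 4717 bp or more away. In intron 6 of *IKZF2*, the summits of HSB-2, LOUCY, SUP-T13, and DND-41 spanned 600 bp with fold enrichments of 1.45, 1.49, 1.88, and 1.80, and a palindrome lay 153 bp from the DND-41 summit. In intron 20 of *TUT4*, a terminal uridylyltransferase, those of SUP-T13, LOUCY, DND-41, and JURKAT spanned 673 bp with values between 1.61 and 2.02. The site in the last exon of *RAP1A*, a small GTPase, which also lies in *INKA2*, held summits of JURKAT, LOUCY, DND-41, and HSB-2 within 217 bp, with values between 1.77 and 2.57. Each of these 4 sites included DND-41, LOUCY, and 2 further lines, and none included KOPT-K1.

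Among the sites of 3 lines, the one in intron 4 of *SRGAP2B* was the tightest of the 6 described. Its summits in DND-41, JURKAT, and HSB-2 spanned 22 bp, with fold enrichments of 3.12, 1.98, and 3.41, and the nearest palindrome lay 91 to 112 bp away. *SRGAP2B* and *NBPF12* belong to gene families with near-identical copies on chromosome 1, so the assignment of reads to these copies is uncertain. The other sites of 3 lines with the highest values lay in *H2BC18* (a histone gene), *AKNAD1*, *ZYG11A*, *ATG4C* (an autophagy protease), and *PPM1G* (a phosphatase), with spans of 281 to 509 bp.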

How the data were processed

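STAT5B ChIP-Seq peak lists of 6 cell lines, 1 per line, were taken as deposited. Per the labels and the study's methods, the authors trimmed reads with PRINSEQ-lite, aligned them to hg38 with BWA 0.7.15-r1140, used SAMtools 1.4 for the alignments and MACS2 for peak calling. R 4.2.1 and deepTools 3.5.1 are also named in the submitters' processing notes. The deposited columns hold, per peak, the position, the summit offset, the fold enrichment over input at the summit, and −log10 q, both computed by the authors' MACS2 run. The deposited score and −log10 p columns, also written by MACS2, were not used here. The lowest −log10 q was 1.3, so values below the calling threshold are absent.

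Summits were placed in GENCODE version 44 gene bodies on chromosomes 1 and 2 and classified by the distance of 2 kb to a protein-coding start site and by a palindrome in the GRCh38 sequence 50 bp to either side. Flank windows lay 1000 bp away on either side. Fold enrichment and −log10 q were compared by medians within a line. Differences over 6 lines were tested with an exact two-sided sign-flip permutation test, adjusted by Benjamini-Hochberg over 11 comparisons or 10 motifs, and the 4 high and 2 low lines with an exact two-sided permutation test over 15 splits, adjusted over 7. Binomial intervals are exact (Clopper-Pearson, 95%). Sites joined summits within 500 bp. Strong summits had a −log10 q of at least 5. Genes were named if they had the most summits, a summit in all 6 lines, a site of 4 lines or a leading site of 3, a fold enrichment among the 2 highest of a list, or membership in a gene list with summits in 3 or more lines, and others are said to be chosen later. The members, motifs, and gene lists were chosen with earlier results of these data known. The comparisons with 1-Mb bins, points 20 kb away, the palindrome in 50-bp steps, and tandem repeats were added after the data were seen. So was the comparison of strong with weaker summits for the palindrome and the RUNX core. The RUNX core at strong summits in high against low lines, the RUNX core in other classes, and the long genes without *AGBL4* were also added then. Alternatives covered the start-site distance, window, flank distance, interval length, q, transcript choice, site distance, and leaving out each line. The scripts were tested on simulated data. Python 3.11.15, NumPy 2.4.6, SciPy 1.17.1, pandas 2.3.3, and matplotlib 3.10.9 were used. Sequences are from the GRCh38 reference supplied with the data. A few genes and sequences are not reported here.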

Additional observations from a re-analysis of the deposited data

Results flagged for a closer look

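Among the 28 measures compared over the 4 high pY-STAT5 lines, 1 held a line far from the others. For the STAT palindrome with 4 free bases, summit minus flank was −2.64 percentage points in KOPT-K1 and 0.675, 0.776, and 0.851 in the other 3 lines, so the gap to the nearest line took up 0.95 of the range, above the critical value of Dixon's test for 4 samples. Chance alone gives such a gap in about 1 in 20 groups. KOPT-K1 had 361 palindrome-free gene-body summits, the fewest of the 6 lines.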

How the results depend on the processing

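No paired analysis was possible because a shared replicate number links no high line to a low one (comparisons between classes of summits were made within each line).

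The fold enrichment difference to promoter summits was −0.0281 without start sites within 5 kb, 0.00402 with intervals of at most 5 kb, and −0.0603 to −0.0440 when 1 line was left out (exact sign-flip permutation test, p = 0.0625, 1 and 0.0625, the last being the smallest 5 lines allow). The −log10 q difference to promoters was −0.356 for medians, the main setting (exact sign-flip permutation test, p = 0.0625). It was −0.221 as a mean of log2 values and −0.135 with intervals of at most 5 kb (exact sign-flip permutation test, p = 0.031 and 0.25). Against intergenic summits, the fold enrichment difference was −0.0194 to 0.00268 and the −log10 q difference −0.0843 to 0.0194 on leaving out lines, positive without KOPT-K1 alone, and 0.00649 for −log10 q with intervals of at most 5 kb. The gene-body log2 ratio was −0.357 among strong summits and −0.00192 with 1-Mb bins, and the exon log2 ratio was 0.115 and 0.00418 under these settings and 0.173 to 0.245 on leaving out a line. The palindrome share at 51 to 250 bp differed from flanks by −0.419 to 0.694 points on leaving out a line, the lowest without DND-41, by 10.5 points among strong summits, and by 1.11 at 51 to 500 bp (exact sign-flip permutation test, p = 0.188 and 0.0625 for the last 2). The G and C difference was 0.661 points without KOPT-K1 and 2.15 among strong summits. The group comparisons could not reach the threshold under any setting.

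With a −log10 q of at least 5, the lines had 64 (SUP-T13), 148 (DND-41), 10 (KOPT-K1), 37 (HSB-2), 24 (JURKAT), and 45 (LOUCY) palindrome-free gene-body summits, and high minus low was 30.25, compared with −148.75 for all. On leaving out a line it ranged from −747.25 to 449.75, with 170.5 without KOPT-K1, and the difference in host genes from −142 to 22. Shared sites numbered 220 within 250 bp, 633 within 1000 bp, and 180 to 373 on leaving out a line, the lowest without DND-41 and 208 without JURKAT. Among strong summits the motif differences were −2.42 (STAT spacing of 2), 1.47 (spacing of 4), and 1.28 (TCF/LEF), and with flanks at 2000 bp −0.0249 (ETS) and 0.0897 (AP-1). Where no value shows why a result changed, the cause was not tested. With 1 library per line, 6 lines, and unknown depth, small differences in weak peaks could not be resolved.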
